A study of Homo sapiens with 8 samples.

Results

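The chromosome 19 microRNA cluster (C19MC) was followed through 50 of the 754 microRNA assays on a pair of TaqMan PCR cards, read in 4 lung adenocarcinoma cell lines with and without TGF-β1. The 50 assays were chosen by name alone: every assay whose microRNA is miR-512 to miR-527 or miR-1283, whatever its letter or arm. The same rule covers miR-498, but no assay of that name was among the 754. RefSeq (GRCh38.p14) placed 47 of the 50 on chromosome 19, in 41 hairpins between chr19:53666679-53762430, a stretch of 95.8 kb. The other 3, miR-513-5p, miR-513B and miR-513C, come from 4 hairpins on the X chromosome (chrX:147189704-147225952). They carry a number within the range without belonging to the cluster, and none of them amplified in any sample.

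C19MC is a primate-specific and imprinted cluster, transcribed from the paternal chromosome. It is best known from placental trophoblast, where it supplies many of the abundant microRNAs, and it is also active in embryonic stem cells and in some tumours that re-express it. Its hairpins arose by repeated duplication, so many of the mature microRNAs differ by a few bases and several share a seed. The seed, bases 2 to 8 of the mature strand, is the part that pairs with target messages.

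The lines were A549, LC2/ad, PC3 and PC9, each with 1 control sample and 1 sample given TGF-β1 at 5 ng/ml for 72 h, which made 8 samples and 4 per group. TGF-β1 is a cytokine that moves epithelial cells towards a mesenchymal state, and the series title places the study in the epithelial-mesenchymal transition. The labels call PC3 a lung adenocarcinoma line, although a widely used prostate line has the same name, and they add that no line was authenticated by the authors. No allele or other agent is given for any group, and no culture was repeated within a line, so a value of 1 line has no replicate error. For TGF-β1, p-values over lines measure the spread of its change between lines. Tests between lines rest on the control and treated sample of each line, which are not repeats of 1 condition. The measure is the raw threshold cycle (Ct): 1 cycle less stands for a doubling of template, and 40 is the value listed for an assay that did not amplify. A Ct of 35 or below was counted as detected.

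Of all 754 assays, 225 to 281 were detected per sample, and the plant microRNA assay on the cards was at 40 in all 8 samples. Epithelial marker assays (miR-200c, miR-141, miR-200b and miR-205) were detected in every sample, 2 to 4 of the 4, and the liver marker miR-122 was at 40 throughout. Of 3 blood markers, miR-451 was at 40 in all samples, miR-142-3p was detected in A549 and LC2/ad, and miR-223 was detected in PC9 and in A549 after TGF-β1, none of them below 32.5. The endothelial marker miR-126 was detected in all 8 samples, at 23.66 to 25.9. So was the nerve marker miR-9, at 24.32 to 29.67, while the nerve marker miR-124 was detected only in PC3 after TGF-β1 (34.89). Of 3 muscle markers, miR-133a was detected only in PC3 after TGF-β1 (34.01). The lowest Ct of miR-1 was 35.52 in the PC3 control, and that of miR-206 was 35.53 in PC3 after TGF-β1. Among 4 fibroblast and smooth muscle markers, none was detected in A549, 2 were in each PC3 sample, and the number went from 1 in the control to 3 after TGF-β1 in LC2/ad and from 0 to 2 in PC9. In PC3 these were miR-199a-3p (25.14 in the control, 25.26 treated) and miR-214 (25.74 and 25.37). Outside PC3, miR-214 was at 40 and miR-199a-3p never below 34.48. The other markers, miR-143 and miR-145, read no lower than 31.94 and 31.33 in any sample. On card A, which carries 36 of the 50 assays, the Ct values of both A549 samples and of the LC2/ad control were deposited with more decimals than those of the other 5 samples. The part of this difference in the A549 and LC2/ad values below was not tested.

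The sequences that matter for reading the values are those of the detected microRNAs and of their nearest relatives on the cards. They are mature strands from RefSeq (GRCh38.p14), 5′ to 3′, with the seed in capitals. Of the 50 assays, 48 were matched to a mature sequence. The detected miR-522 and miR-518f are named only. The first group shares the seed of miR-519a and is shown because 2 of its 3 members were detected:
miR-519a: aAAGUGCAuccuuuuagagugu
miR-519b-3p: aAAGUGCAuccuuuuagagguu
miR-519c-3p: aAAGUGCAucuuuuuagaggau
The second group is the miR-517 family. In RefSeq miR-517a and miR-517b have the same 22 bases, and miR-517c differs at position 12, counted from the 5′ end:
miR-517a: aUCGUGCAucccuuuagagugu
miR-517b: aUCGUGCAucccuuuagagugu
miR-517c: aUCGUGCAuccuuuuagagugu
The remaining detected members with a sequence are miR-518d-3p, and miR-519d, whose seed is that of the miR-17 family outside the cluster:
miR-518d-3p: cAAAGCGCuucccuuuggagc
miR-519d: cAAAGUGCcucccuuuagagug
miR-17: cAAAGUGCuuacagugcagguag
The last group is shown for the seed that the cluster shares with the embryonic stem cell microRNAs miR-302 and miR-372:
miR-520c-3p: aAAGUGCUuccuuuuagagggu
miR-372: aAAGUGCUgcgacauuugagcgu
miR-302a: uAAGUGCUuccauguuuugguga

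Very little of the cluster was measurable in these lines. Of the 50 assays, 7 were detected in at least 1 sample, 10 more amplified but never below a Ct of 35, and 33 never amplified (66%). Over all 754 assays, 49.3% were detected in at least 1 sample and 62.5% amplified. Among the 704 other assays, 365 were detected and 250 never amplified (35.5%). The lowest Ct of an assay over the 8 samples had a median of 40 among the 50 and of 34.7 among the 704. None of the 50 reached a Ct of 32 or below in any sample, against 248 of the other 704. The difference was seen on both cards: assays that never amplified made up 66.7% of the 50's share of card A and 64.3% of their share of card B, beside 24.3% and 46.0% of the other assays on those cards.

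The wells tell the same in finer grain. The 50 assays gave 400 wells, of which 45 amplified (11.25%), with a median Ct of 37.4 among those 45. The other assays gave 5632 wells, of which 2530 amplified (44.9%) with a median Ct of 31.5. Only 11 of the 400 wells were at 35 or below. Of the 17 assays that amplified, 4 did so in a single sample, 13 in 2 or more and none in all 8, whereas 202 of the other assays amplified in all 8.

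All 17 assays that amplified measure the 3′ strand of their hairpin. They are 17 of the 30 assays of that strand (56.7%), against 0 of the 20 assays of the 5′ strand, or 0 of 17 without the X-linked miR-513 assays. Among other assays that carry the arm in their name, 42 of 62 for the 3′ strand (67.7%) and 45 of 60 for the 5′ strand (75%) amplified. The arm was read from the name of the mature microRNA assigned to each assay, as many of the assay names carry none. For miR-518b, miR-520h, miR-521 and miR-1283 it was taken from the position of the mature strand in the hairpin. The other assays above were sorted by the arm in the assay name itself. The 5′ strands share sequence among themselves: the letters AAGCACUUU occur in 8 of the 48 matched members (16.7%) and in 0.549% of 2370 human mature microRNAs in the RefSeq table, and none of these 8 amplified. The motif UUUAGAG occurs in 17 of the 48 matched members of both arms (35.4%, against 0.844% of the table). All 17 are 3′ strands, and 8 of those 17 amplified. The RefSeq shares include the members themselves: AAGCACUUU occurs in 13 entries of the table and UUUAGAG in 20. Both motifs were searched on the mature strand as written.

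The detected members were few in every sample and absent from A549. The numbers at a Ct of 35 or below were 0 in the A549 control and 0 after TGF-β1, where 33.0% and 34.0% of all assays were detected. In LC2/ad they were 1 and 1, against 37.3% and 34.6% of all assays. PC3 had the most, 4 in the control and 2 after TGF-β1, against 36.1% and 35.9%. PC9 had 1 and 2, against 29.8% and 30.6%. A549 thus averaged 0 per sample, LC2/ad 1, PC9 1.5 and PC3 3. An exact permutation of the 8 samples over the 4 lines gave p = 0.0571, which missed 0.05, and 105 arrangements allow no p below 0.00952. This test takes the control and treated sample of a line as repeats, although they differ in treatment. Counting any amplification, the means in the order A549, LC2/ad, PC3, PC9 were 3, 5, 10 and 4.5, with p = 0.0476 in the same exact permutation test. Without PC3 the means at 35 differed by at most 1.5, with p = 0.2 in the exact permutation test, whose smallest possible p was then 0.0667. Fewer cells with a microRNA and less of it per cell cannot be told apart in these bulk samples.

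The clearest member was miR-519a, a microRNA described as a repressor of the RNA-binding protein HuR together with its relatives miR-519b and miR-519c. Its raw Ct was 32.25 in the PC3 control and 32.71 in PC3 after TGF-β1. In PC9 it was 40 in the control and 34.62 after TGF-β1, and it was 40 in both samples of A549 and of LC2/ad. It was thus the member with the lowest Ct, and PC3 was the line that gave it in both conditions. Its mature strand comes from a pair of hairpins, MIR519A1 at chr19:53752397-53752481 and MIR519A2 at chr19:53762344-53762430, the last of the cluster, and the assay does not separate them.

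miR-522 followed the same samples. Its Ct was 34.46 in the PC3 control, 33.53 in PC3 after TGF-β1, 40 in the PC9 control and 35 in PC9 after TGF-β1, with 40 in all A549 and LC2/ad samples. The PC9 value lies on the limit itself. Its hairpin, at chr19:53751211-53751297, is the one just before MIR519A1: the hairpins begin 84.5 and 85.7 kb into the cluster. Both members were therefore detected in the same 3 of 8 samples.

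miR-519b-3p, whose strand differs from that of miR-519a at positions 20 and 21, behaved otherwise. It was read on card B and had a Ct of 34.14 in the PC3 control and 40 in PC3 after TGF-β1. It amplified late in the LC2/ad control (39.12) and in PC9 (38.34 in the control, 39.44 after TGF-β1), and stayed at 40 in A549 and in LC2/ad after TGF-β1. Only the PC3 control passed the limit. The third relative with the same seed, miR-519c-3p, was at 40 in all 8 samples. The RefSeq strands of these relatives lie 2 or 3 bases apart, and cross-reaction of their assays was not tested.

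miR-519d, which has the seed of the miR-17 family, was detected in the PC3 control alone, at 34.86. It was 40 in PC3 after TGF-β1 and in the PC9 control, 37.27 in PC9 after TGF-β1, and 40 in A549 and LC2/ad. The 6 microRNAs outside the cluster with this seed on the cards (miR-17, miR-20a, miR-20b, miR-93, miR-106a and miR-106b) were detected in all 8 samples. Of these, miR-17 had Ct values from 20.69 to 22.1 and miR-20b, the latest, from 29.03 to 31.84. The seed itself was thus present in every sample through other loci.

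The remaining detected members were single readings in LC2/ad and PC9. miR-517a, a microRNA used as a marker of placental RNA in maternal blood, had a Ct of 34.65 in the LC2/ad control and 40 in the other 7 samples. miR-517b has the identical mature strand in RefSeq and was 40 in all 8 samples, the LC2/ad control included. The exact bases that each assay targets were not checked. miR-517c, 1 base away, amplified in PC3 (38.54 in the control, 37.51 after TGF-β1) and in no other line. The 3 assays of this family thus gave no reading in common.

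miR-518d-3p had a Ct of 34.78 in the PC9 control, 38.42 in PC3 after TGF-β1 and 40 in the other 6 samples. miR-518f amplified in 5 of the 8 samples, more than any other detected member. Its Ct was 37.80 in the A549 control and 40 after TGF-β1, 35.07 and 34.78 in the LC2/ad pair, 37.41 and 35.92 in the PC3 pair, and 40 in both PC9 samples. It passed the limit in a single sample, the treated one of LC2/ad, which lay 0.285 cycles below its control. That gap is smaller than 0.315 cycles, the SD between U6 wells of a card.

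The 10 members that amplified only above 35 had lowest Ct values from 35.28 to 39.49, where few template copies set the reading. miR-520c-3p, described in breast cancer cells as a promoter of migration, read 35.28 in PC3 after TGF-β1, 37.33 in LC2/ad after TGF-β1, 39.37 in PC9 after TGF-β1 and 40 in the other 5 samples. Its 3 readings all came from treated samples. miR-516-3p ran the other way in part: it read 37.68 in the LC2/ad control, 35.37 and 39.54 in PC3 control and treated, 37.92 in the PC9 control and 40 elsewhere. miR-518b read 37.40 in the A549 control, 36.70 and 37.07 in PC3 control and treated, and 37.85 in the PC9 control. miR-518e was at 40 in PC3 and PC9. It read 37.52 in the A549 control, 38.06 in the treated A549 sample, 38.17 in the LC2/ad control and 37.53 in the treated LC2/ad sample. miR-520D-3P read 38.22, 38.52 and 38.16 in A549, LC2/ad and PC3 after TGF-β1 and 40 in the other samples. The remaining late members were miR-517c, given above, miR-523, miR-515-3p, miR-524 and miR-520f, with lowest values between 37.12 and 39.49.

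**Figure D1:**
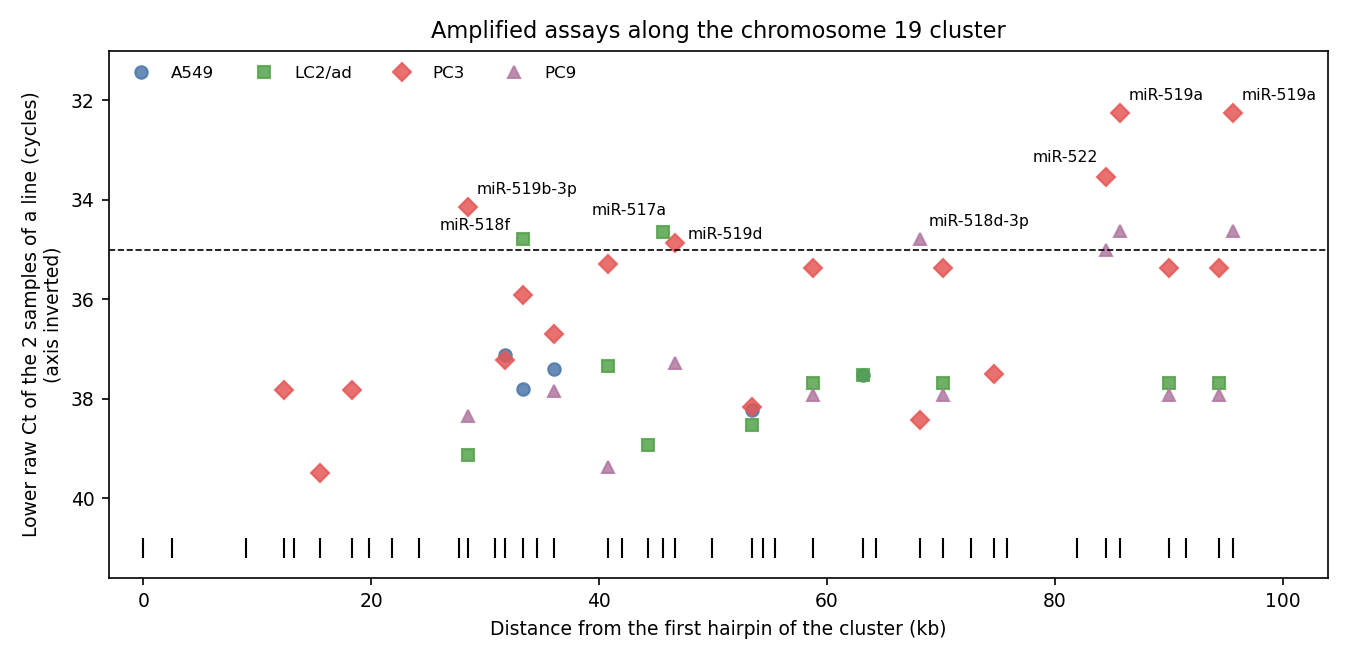
Position along the chromosome 19 cluster (x axis, kb from the first hairpin) against the lower raw Ct of a line's 2 samples (y axis, cycles, inverted), 1 symbol per line for each hairpin of an amplified assay; ticks at the bottom are all 41 hairpins and the dashed line is Ct 35. The lowest Ct values, those of miR-519a and miR-522 in PC3, sit at 84.5 to 95.7 kb, and amplified assays are spread from 12 kb to the end.

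By seed, 29 distinct seeds were present among the 48 matched members. The largest family, with 5 assays (miR-520a-3p, miR-520b, miR-520c-3p, miR-520D-3P and miR-520e), has the seed of miR-302 and of miR-372 and miR-373, a family described as repressing the TGF-β type II receptor. None of the 5 was detected and 2 amplified. In the family of miR-518a-3p, miR-518b, miR-518c and miR-518d-3p, 1 of 4 was detected and 2 amplified. In the families of miR-519a and of miR-517a, 2 of 3 and 1 of 3 were detected. The letters AAGUGC, part of the seeds of miR-519a, miR-519d and miR-520c-3p, occur in 14 of 48 members (29.2%) and in 1.65% of the RefSeq table, and 6 of the 14 amplified. That table includes the members.

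Few of the nearest microRNA genes outside the cluster and of the embryonic miR-302 cluster were read. The hairpins of miR-371a, miR-372 and miR-373 begin 25.2 kb beyond the last C19MC hairpin, at chr19:53787675-53788773. Of the 3 such assays on the cards (miR-371-3p, miR-372 and miR-373), none was detected, and 1 amplified: miR-373 read 35.64 in the PC3 control and 40 elsewhere. Of 10 assays of the miR-302 cluster, which marks embryonic stem cells, 1 was detected. That was miR-302a at 34.40 in the PC3 control, with 40 in the other 7 samples, and miR-302b read 35.24 and 36.71 in PC3 control and treated. These 3 amplified in PC3 and in no other line, and all 3 have the seed of miR-520c-3p. miR-302c, miR-302d and miR-372 have that seed too and were at 40 in every sample.

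Whether TGF-β1 altered detection was asked within each line. The difference in the number of detected members, TGF-β1 minus control, was 0 for A549 and for LC2/ad, -2 for PC3 and 1 for PC9. The difference in PC3 changed side with the limit: 1 and 2 members were detected there at 34, control and treated, and 9 and 11 amplified at all, while 6 and 4 amplified in LC2/ad. The mean difference was -0.25 (SD 1.26, n = 4 lines), with p = 1 in a two-sided exact sign-flip permutation test that cannot go below 0.125 with 4 lines. Leaving out PC3 turned the mean to 0.333, and leaving out PC9 gave -0.667. No change in the number of detected members was therefore measurable, and 4 lines could not have shown one at 0.05.

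Individual members crossed the limit in both directions. After TGF-β1 only, detection was seen for miR-518f in LC2/ad and for miR-519a and miR-522 in PC9. In the control only, it was seen for miR-517a in LC2/ad, miR-519b-3p and miR-519d in PC3, and miR-518d-3p in PC9. Over all assays, the share found only after TGF-β1 was 3.45% (A549), 2.92% (LC2/ad), 2.79% (PC3) and 3.58% (PC9), and the share found only in the control was 2.52%, 5.57%, 2.92% and 2.79% in that order. Summed over lines, 9 pairs of a member were detected in at least 1 sample, and in 7 of them only 1 sample was (77.8%). All 9 had their lower Ct between 32 and 35. Among pairs of other assays with a lower Ct in that range, 187 were detected in 1 sample only (51.0%), so readings this late crossed the limit often for other microRNAs too.

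Only miR-519a and miR-522 in PC3 gave a change with both samples measured. For this the Ct was set against the card's mean over assays that every sample detected (117 for card A, 51 for card B) and turned so that higher means more. On that log2 scale the change of miR-519a after TGF-β1 was -0.46 (-4.82 in the control, -5.28 treated), and that of miR-522 was 0.93 (-7.03 in the control, -6.10 treated). These 2 neighbours thus differed in opposite directions in the same pair of samples, and neither value reached 2-fold. With U6 as normalizer they were -0.24 and 1.15, the second past 2-fold. Over the assays detected in 1 or both samples of PC3, 5.12% were higher and 5.46% lower by 2-fold or more after TGF-β1. With 1 sample per condition, neither value has a replicate check.

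Where 1 sample of a line was undetected, its Ct was set to 35 and the change is a bound. With the mean as normalizer, miR-519b-3p in PC3 was at least 1.75-fold lower after TGF-β1, and miR-518f in LC2/ad was at least 1.53-fold higher. These 2 bounds kept their side under each normalizer run, from -1.19 (median) to -0.79 (all control RNAs) and from 0.22 (raw Ct) to 0.89 (median) on the log2 scale. The 1.53-fold is thus no lower limit over the normalizers. The raw Ct of miR-518f in the LC2/ad pair lay 0.285 cycles apart, less than 0.445, the SD of a difference between U6 wells. The bounds of 3 others changed side with the normalizer and give no direction. For miR-519d in PC3 the bound was -0.14 with the mean and 0.08 with U6, for miR-518d-3p in PC9 -0.45 and 0.45, and for miR-519a in PC9 0.15 with the mean, -0.06 with the median and 1.05 with U6. For miR-517a in LC2/ad and miR-522 in PC9 the bound with the mean lay on the other side of the reading, and no fold is given. With the mean as normalizer no bound reached 2-fold. Over all assays detected in a line, the shares 2-fold or more higher and lower after TGF-β1 were 10.2% and 11.3% for A549, 16.8% and 13.2% for LC2/ad, and 11.1% and 10.3% for PC9.

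No member entered the test of TGF-β1 over the lines, because none had a difference in 3 or more lines. That test, limma's moderated test on within-line differences, took in 250 assays and called none (0.0%) at an adjusted p of 0.05, with 30 at an unadjusted p under 0.05. Admitting a difference in 2 lines brought in miR-519a and miR-522. Each then averages the PC3 value with the PC9 bound, which gives no direction, so these are not estimates of a change. The means were -0.16 (adjusted p = 0.880) and 0.35 (adjusted p = 0.766) in log2, by limma with Benjamini-Hochberg adjustment over 297 assays. Without any limit, 40 taken as a value, 6 members could be tested and none passed. The smallest adjusted p was then 0.393, for miR-520D-3P, higher by 1.66 in log2 over the lines.

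The levels were also compared between lines, with a limma F test on 372 assays detected in at least 1 sample, in a model of line and treatment. It called 240 assays (64.5%), among them 5 of the 7 detected members: miR-519a (adjusted p = 0.00374), miR-517a (0.0101), miR-518d-3p (0.0135), miR-519d (0.0149) and miR-518f (0.0208). miR-522 (0.0531) and miR-519b-3p (0.206) did not pass. A member entered this test only through samples where its Ct was at 35 or below, and the test compared those same values. The calls are therefore no separate evidence of a difference between lines. In this fit an undetected sample stands at its own limit, and that limit lies higher in PC9 than in the other lines. miR-517a, miR-518d-3p, miR-519d and miR-518f were each at 35 or below in 1 of 8 samples, so 7 of the 8 values compared are limits, and their calls say little about the microRNA itself. For miR-517a, the PC9 samples stood at -5.85 and -6.09 without any amplification, above the LC2/ad control where it was read (-7.17). When every sample of a card was given the same limit, 191 of 318 assays (60.1%) were called. Only miR-519a and miR-518d-3p could then be tested, and neither was called (adjusted p = 0.0609 and 0.908, limma). With U6 as the normalizer, miR-519a alone was called (adjusted p = 0.00297), beside 57.0% of all assays. Leaving out a line left 0 of 5 tested members called without PC3, 1 of 6 without PC9, 3 of 5 without LC2/ad and 5 of 7 without A549. The same fits called 102 of 338, 143 of 358, 241 of 352 and 202 of 365 of all assays, in that order.

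miR-519a had 3 measured values and 5 limits in that fit. Its levels in PC3 were -4.82 and -5.28, while A549 and LC2/ad were at limits of -7.12 and below and PC9 read -5.71 after TGF-β1, with a limit of -5.85 in the control. Its call was lost without PC3 (adjusted p = 0.0551), with 1 limit for each card (0.0609) and with the deposited ratios (0.0606), and over all alternatives its adjusted p lay between 0.00143 and 0.0609, by limma. Both PC9 values lay below both PC3 levels with the mean and with U6 as normalizer. With the median the treated samples read -5.06 in PC9 and -5.09 in PC3, and with RNU48 -12.27 and -12.37, so the order of PC3 and PC9 depended on the normalizer.

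The authors' deposited table gives a fold of TGF-β1 over control for every assay, with 40 used as a value and U6 as the normalizer. By that table, 4 members differed at least 2-fold in A549, and 4, 11 and 6 did so for LC2/ad, PC3 and PC9. A sample at 40 entered 4, 4, 7 and 6 of these, and both samples were at 35 or below for 1, miR-522 in PC3 with a deposited fold of 2.22. The largest deposited folds belong to such pairs: 66.4 for miR-519a and 51.0 for miR-522 in PC9 in the authors' deposited table, where the controls were at 40. So do the lowest: 0.0163 for miR-519b-3p in PC3 and 0.0254 for miR-517a in LC2/ad, where the treated samples were at 40. Members that amplified in neither sample also have a deposited fold, 1 value for all of them on a card: in PC9, 1.59 on card A and 1.15 on card B. For A549, LC2/ad and PC3 the authors' deposited table gives these on card A as 1.01, 1.04 and 1.17, for 45, 42 and 36 members over both cards. These folds carry the U6 difference of the sample pair and no reading of the microRNA.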

How the data were processed

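Total RNA of 4 lines was reverse transcribed and read by TaqMan PCR over 40 cycles, per the labels' protocols. The deposited tables hold raw Ct (a cycle number, not a count), linear ratios calibrated to 1 sample, per the file headers, and their quotients, the deposited folds. Recomputing the deposited ratio as Ct minus the card's U6 average left a largest log2 difference of 4.07e-06. The instrument's software is not stated in any source used here. Groups follow the treatment characteristic and title; the source name, worded the other way, was not used.

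The members, the lists and the rule for naming were chosen with earlier results of these data known. Every member at Ct 35 or below in at least 1 sample is named; the others are counted or given by range. Ct above 35 was set to 35, and the mean Ct of assays detected in all samples served as normalizer, per card. Tests used limma 3.58.1 in R 4.3.3, Benjamini-Hochberg adjustment over all assays tested, and exact permutation tests; the limma script was checked on simulated data. The control and TGF-β1 samples are paired by cell line in the labels. Over 168 assays their deviations from the group means correlated within the line (r of 0.916 for A549, 0.809 for LC2/ad, 0.940 for PC3, 0.922 for PC9). The highest r with another line was 0.785 for A549 and 0.753 for LC2/ad, little below that within LC2/ad. It was -0.128 for PC3 and -0.137 for PC9. The alternatives covered the Ct limit, the normalizer, the members, the block and each line left out.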

Additional observations from a re-analysis of the deposited data

Results flagged for a closer look

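In groups of 4 samples where 3 did not amplify, any reading stands apart, so these flags follow from sparse amplification. The cut-off of the flag is set to mark about 1 in 20 groups by chance, a rate that does not apply to such groups. Among control samples, miR-519a at 32.25, miR-522 at 34.46 and miR-519d at 34.86 stood apart in PC3, miR-517a at 34.65 in LC2/ad and miR-518d-3p at 34.78 in PC9. Among TGF-β1 samples, miR-518d-3p at 38.42 stood apart in PC3, and miR-519b-3p at 39.44 and miR-519d at 37.27 in PC9. Each was the 1 sample of its group with a raw Ct below 40.

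The log2 change of miR-519a after TGF-β1 was -0.46 in PC3 and, as a bound, 0.15 in PC9. These lie on opposite sides of 0, and their difference was not tested. The PC9 bound was -0.06 with the median as normalizer.

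The 10 members that amplified only above Ct 35 enter no comparison at that limit. They gave readings while the plant control assay was at 40 in all 8 samples.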

How the results depend on the processing

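The counts follow the Ct limit. At 32 no member was detected in any sample (0 in each, 0 in at least 1), so no member was found in 1 sample of a line only (0) and the mean change in number was 0. At 38, 14 members were detected in at least 1 sample: 3 and 1 for A549 (control, TGF-β1), 3 and 3 for LC2/ad, 8 and 7 for PC3, 3 and 3 for PC9. Counting any amplification, 17 were, with 3 and 3 for A549, 6 and 4 for LC2/ad, 9 and 11 for PC3, 4 and 5 for PC9. Members found in 1 sample of a line only were then 4, 4, 7 and 6 at 38 (A549, LC2/ad, PC3, PC9) and 4, 6, 8 and 7 for any amplification, against 0, 2, 2 and 3 at 35. The mean change in number was -0.75 at 38 (p = 0.5 in the exact sign-flip test) and 0.25 for any amplification. At 35 it ran from -0.667 to 0.333 with 1 line left out. The line means differed by up to 7 for any amplification (exact permutation p = 0.0476) and by 3 at 35 (exact permutation p = 0.0571). At 38 they differed by up to 5.5 (exact permutation p = 0.143). Limits of 34 and 36, added after a member was seen at 35, gave 0 in LC2/ad and PC9 and, in PC3, 1 in the control and 2 after TGF-β1 at 34. At 36 they gave 2 in the LC2/ad control and, in PC3, 5 in the control and 4 after TGF-β1. Leaving out the X-linked assays changed no count.

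Of 7 detected members, 5 were called between lines, beside 240 of all 372 assays. As members entered only through samples that detected them, none of the counts below is separate evidence of a line difference. The number was 1 of 7 with U6 and with raw Ct (1), 3 of 14 tested at a limit of 38, 0 of 2 tested with 1 limit per card, and 0 of 7 with the deposited ratios. Of all assays, U6 called 212 of 372, raw Ct 211 of 371 and the limit of 38 called 185 of 458. It was 191 of 318 assays with 1 limit per card and 149 of 372 with the deposited ratios. With 1 line left out the number of members ran from 0 (of 5 tested, without PC3) to 5 (of 7, without A549), with 1 of 6 without PC9 and 3 of 5 without LC2/ad. The calls among all assays were 102 of 338 without PC3, 202 of 365 without A549, 143 of 358 without PC9 and 241 of 352 without LC2/ad. The number of members was 6 of 7 with RNU48, with all control RNAs, with the median and without the treatment term. These settings called 266, 228, 251 and 240 of all 372 assays, in that order. A limit of 32 left no member to test. The cause of these differences was not tested.

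With the cell line as a block, 0 members passed for TGF-β1 over the lines, and with no replicate block also 0. It was 0 under the other alternatives too, in most of which no member had enough differences to enter, which says nothing about stability. Within-line changes of the named members moved by more than 0.445, the SD of a difference between U6 wells, in 27 of 72 comparisons and by less in 45. Readings above 32 rest on few copies, and no technical repeat of a member's well is given.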
